A study of Drosophila melanogaster with 3 samples.

Results

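The genes described here are 33 named genes that copy DNA or time cell division, placed among the 13945 protein-coding genes on the 6 main arms of the *Drosophila melanogaster* genome. They were chosen by function, with earlier results of these data known. They comprise 13 cyclin and kinase genes (counting the phosphatases and the inhibitor that act on the kinases), 13 origin and helicase genes, 2 mitotic exit genes and 5 genes of S-phase supply and E2F. The question asked of them was where zf30C, a zinc finger protein, was located at these genes, and how far the replicates shared each site.

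Chromatin immunoprecipitation with sequencing (ChIP-seq) recovers DNA bound by a protein, and was carried out here on whole embryos of both sexes, 0 to 24 h old, from transgenic flies that stably express zf30C fused at its C-terminal end to GFP. All 3 libraries belong to 1 group of biological replicates, and no second genotype or condition was analysed here. The labels name zf30C as the antibody target but also describe the same libraries as an input control, a contradiction that affects every value below, while the deposited notes pair each library with a separate control alignment. The libraries were treated as immunoprecipitated samples. Whole embryos of 0 to 24 h mix many cell types and stages, so a site cannot be assigned to any of them.

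The authors deposited region lists, each region with a summit (the position of its maximum) and a signal value in a unit not given in the sources used here. The list from the 3 libraries pooled holds 30000 summits, and the list that passed the irreproducible discovery rate (IDR) step, which keeps regions that rank alike in replicates, holds 3567. These 3567 are exactly the 3567 highest summits of the pooled list, so a gene is called here when a summit of rank 3567 or better lies inside it or within 500 bp of one of its transcription starts. Pooled signal over the IDR list ran from 193.0 to 12466 with a median of 332. Each replicate list also holds 30000 regions, its highest signal was 6431, 3309 and 2808 in replicates 1, 2 and 3, and signals cannot be compared between lists. The lists carry no read counts, so depth is unknown and ranks carry no interval.

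In a dividing cell, the origin recognition complex marks replication origins, and Cdt1 (dup in the fly) helps it to load the MCM helicase there. Cyclins and their kinases then start S phase and mitosis, and the E2F transcription factor, a pair of E2F1 and DP proteins, drives genes of the S phase. The anaphase-promoting complex ends mitosis by destroying cyclins, first with the activator fzy (Cdc20) and then with fzr (Cdh1), and fzr and the inhibitor dap are needed in the fly embryo when cells stop dividing. The earliest embryonic divisions run on products laid down by the mother, and later ones follow new transcription of stg.

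An IDR-list summit was found at 9 of the 33 genes (27.3%), against 13.6% of all protein-coding genes by the same rule. The 9 genes were CycB3, CycE, twe, Orc2, dup, fzr, RnrS, E2f1 and Dp. Among genes with any pooled summit, 9 of 25 replication and cell cycle genes were called (36%), against 27.1% of the 7025 protein-coding genes. All 25 had a pooled summit within 500 bp of a start, and at 7 of them (28%) a summit there was in the IDR list, against 21.9% of genes with a promoter summit. No test was made of these shares, since the genes were listed with earlier results known. The counts were 3 of 13 for cyclin and kinase genes (23.1%), 2 of 13 for origin and helicase genes (15.4%), 1 of 2 for mitotic exit genes and 3 of 5 for S-phase supply and E2F genes. Each of these rests on 1 to 3 called genes. The origin and helicase share lies close to the 13.6% of all genes, but all 13 of these genes are up to 5 kb long. Of protein-coding genes of that size, 7.37% were called. Among members up to 5 kb, 2 of 13 origin and helicase genes and 2 of 11 cyclin and kinase genes were called. The same count was 0 of 1 for mitotic exit genes and 1 of 3 for S-phase supply and E2F genes.

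The genomic sequence around 6 of the 13 called summits is shown because it is the DNA that the values belong to. These 6 windows were picked for display, so their matches give no rate. Shares over all 13 are given further below, beside those of the whole IDR list. Each window is 201 bp centred on the summit, from the RefSeq Release 6 genome, the assembly that dm6 denotes, plus strand, 5′ to 3′. Capitals mark exact matches on either strand to GAGAG (GAGA factor), GGTCACACT (M1BP, a promoter-binding zinc finger factor) or TATCGATA (the DNA replication-related element, DRE). The windows are E2f1 at chr3R:21641674-21641874, in an intron, fzr at chrX:4679791-4679991, upstream of the gene, CycE at chr2L:15741522-15741722, in an intron, Orc2 at chr3R:13964545-13964745, CycB3 at chr3R:24870739-24870939 and twe at chr2L:16262013-16262213, the last 3 with their summit upstream of the gene's start.
E2f1: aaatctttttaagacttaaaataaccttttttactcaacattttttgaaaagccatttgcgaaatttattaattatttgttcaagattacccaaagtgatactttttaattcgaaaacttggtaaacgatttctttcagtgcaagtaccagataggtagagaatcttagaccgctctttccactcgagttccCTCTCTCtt
fzr: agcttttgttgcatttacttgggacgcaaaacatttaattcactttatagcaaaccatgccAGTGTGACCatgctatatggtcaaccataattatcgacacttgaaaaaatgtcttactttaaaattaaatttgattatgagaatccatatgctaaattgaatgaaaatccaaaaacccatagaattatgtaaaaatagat
CycE: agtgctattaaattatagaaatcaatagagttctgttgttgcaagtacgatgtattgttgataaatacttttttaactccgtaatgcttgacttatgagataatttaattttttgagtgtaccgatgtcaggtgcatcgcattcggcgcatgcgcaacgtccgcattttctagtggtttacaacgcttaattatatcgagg
Orc2: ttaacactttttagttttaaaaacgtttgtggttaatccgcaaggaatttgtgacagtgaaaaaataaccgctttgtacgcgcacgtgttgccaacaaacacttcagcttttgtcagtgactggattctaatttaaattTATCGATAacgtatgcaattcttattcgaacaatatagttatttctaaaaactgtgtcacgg
CycB3: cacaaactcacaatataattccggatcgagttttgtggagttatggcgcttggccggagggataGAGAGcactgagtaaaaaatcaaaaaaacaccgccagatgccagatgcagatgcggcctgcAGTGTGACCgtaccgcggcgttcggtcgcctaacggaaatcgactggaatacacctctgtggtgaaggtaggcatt
twe: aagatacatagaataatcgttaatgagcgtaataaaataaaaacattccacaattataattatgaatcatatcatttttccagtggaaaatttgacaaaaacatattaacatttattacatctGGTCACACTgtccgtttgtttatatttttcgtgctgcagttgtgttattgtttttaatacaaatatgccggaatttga

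The highest site of the set belonged to E2f1, the activating E2F subunit that switches on S-phase genes. It lay in an intron of this 40568 bp gene, at chr3R:21641212-21642162, 3280 bp upstream of the nearest E2f1 start and 3122 bp downstream of the start of the non-coding RNA gene CR46056. Its pooled signal was 2913, rank 62 of 30000. The signal was 1635 in replicate 1, 803 in replicate 2 and 529 in replicate 3, which are ranks 50, 56 and 109 of those lists. The site was thus near the top of every replicate, and its percentile among all IDR-list peaks was 97.6 ± 1.07 (SD, n = 3). E2f1 held 36 of the 111 pooled summits counted at the 33 genes, and 4 of the 13 in the IDR list.

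The other called E2f1 sites, also intronic, were lower, and their percentiles had a larger SD over the replicates. The site at chr3R:21636465-21636637, rank 1878, was at ranks 2313, 1563 and 1729 in replicates 1, 2 and 3, a percentile of 45.8 ± 10.7 (SD, n = 3). The site of rank 2636 was at ranks 2510, 2057 and 5731 and had a percentile of 25.9 ± 17.6 (SD, n = 3). The site of rank 3100 was at ranks 2400, 3015 and 10160 and had a percentile of 19.2 ± 15.6 (SD, n = 3). These last 2 sites stood well lower in replicate 3 than in the others. At the E2f1 promoter itself the best summit, 65 bp downstream of a start, had rank 4441 and was not in the IDR list. Dp, the partner that E2F needs to bind DNA, was called at its promoter, 40 bp upstream of its start at chr2R:13222173-13222612. Its pooled signal was 225 (rank 2888), with signals of 84.2, 56.2 and 80.0 at ranks 4812, 3390 and 1971 in replicates 1, 2 and 3. The Dp percentile was 22.7 ± 20.2 (SD, n = 3), with an SD nearly as large as its mean.

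Among the genes of S-phase supply, RnrS, the small subunit of the ribonucleotide reductase that makes deoxynucleotides, was called and the others were not. The RnrS summit lay 159 bp upstream of its start, at chr2R:11985332-11985771, with pooled signal 223 (rank 2925). Its signals were 127, 40.5 and 68.7, at ranks 2753, 5920 and 2439 in replicates 1, 2 and 3, and replicate 2 thus left it outside the top 3567. RnrL, the large subunit of the same enzyme, had no summit in the pooled list or in any replicate list. PCNA, the sliding clamp of the replication fork, had 1 pooled summit, 103 bp upstream of its start, with signal 157 (rank 4802). PCNA signals were 47.8, 39.7 and 60.9, at ranks 10893, 6116 and 2987, so it stood within the top 3567 of replicate 3 alone.

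fzr, the activator that keeps the anaphase-promoting complex on after mitosis, had the second highest site among the 33 genes. The summit lay 354 bp upstream of the fzr start, in the region chrX:4679165-4680377, with pooled signal 1238 (rank 359). Its signal was 661 in replicate 1, 381 in replicate 2 and 193 in replicate 3, at ranks 361, 270 and 578. The percentile was 87.0 ± 4.97 (SD, n = 3), so the site was high in every replicate. A further fzr summit, in an intron 7989 bp downstream of its nearest start, reached rank 2949, with ranks 3417, 4141 and 2761 and a percentile of 18.5 ± 9.38 (SD, n = 3). fzy, the activator that acts earlier in mitosis, had no pooled summit, and its only replicate region was at rank 29207 of replicate 3. With 2 genes, the contrast describes fzr and fzy and not mitotic exit genes in general.

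**Figure D1:**
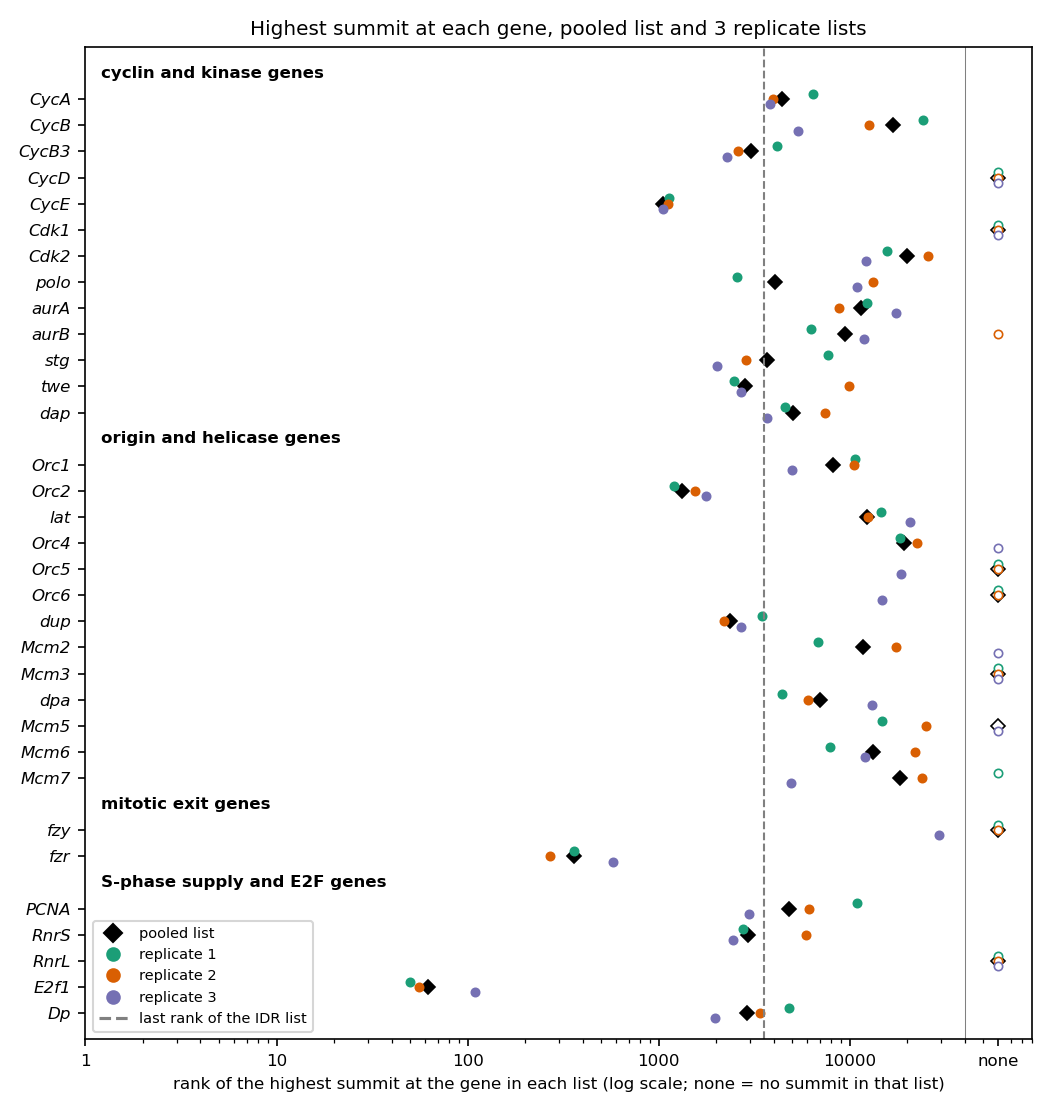
Rank by signal (log axis, rank 1 the highest) of the highest summit at each of the 33 genes in the pooled list (diamonds) and in each of the 3 replicate lists (circles), which need not be the same region, with a dashed line at rank 3567, where the IDR list ends. Open symbols mark a list with no summit at the gene. E2f1 at rank 62 and fzr at rank 359 stand above the others, and 8 genes have no pooled summit.

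Of the cyclins, which switch their kinases on, CycE and CycB3 were called. CycE, which drives entry into S phase with Cdk2, was called in an intron, 4988 bp downstream of its nearest start, at chr2L:15741402-15741787. Its pooled signal was 517 (rank 1054), with signals of 266, 127 and 123 in replicates 1, 2 and 3. The ranks of the replicate regions overlapping it were 1128, 1117 and 1049, and the percentile was 66.4 ± 1.60 (SD, n = 3). The 3 libraries thus ranked this site almost equally, counting any region with at least 1 bp of overlap. The start nearest to it was that of the non-coding RNA gene CR44974, 4635 bp away. CycE held 17 pooled summits, and the best at its promoter, 147 bp upstream of a start, had rank 4948. CycB3, a mitotic cyclin, was called 23 bp upstream of its start, at chr3R:24870619-24871058. Its pooled signal was 216 (rank 3058), its replicate signals were 93.4, 67.1 and 72.4 at ranks 4154, 2606 and 2267, and its percentile was 25.2 ± 16.0 (SD, n = 3). CycB3 thus fell outside the top 3567 of replicate 1.

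The other mitotic cyclins were lower, and CycD was not seen. CycA, needed for mitosis, had its best summit 70 bp downstream of a start with signal 167 (rank 4404), and replicate ranks of 6407, 3960 and 3830. CycB had its best summit 26 bp downstream of a start with signal 66.0 (rank 16795). CycD, which with Cdk4 promotes growth, had no summit in any list. None of the 5 kinases was called. polo, a mitotic kinase, came nearest, with signal 176 (rank 4088). Its summit lay inside the gene, 105 bp upstream of the nearest of its 2 starts. That region was at rank 2582 in replicate 1 and 13252 in replicate 2 and was not listed in replicate 3. The mitotic kinases aurB and aurA had ranks 9499 and 11431, and both summits lay nearer to the start of a neighbour, Stam at 139 bp and CG3281 at 149 bp. Cdk2, the kinase of S phase, had rank 20042, and Cdk1, the kinase of mitosis, had no summit in any list.

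The 2 phosphatases that activate Cdk1, twe and stg, lay on either side of the end of the IDR list. twe, which acts in meiosis and in the earliest embryonic cycles, was called at chr2L:16261893-16262332, 236 bp upstream of its start, with signal 229 (rank 2829). The start of the neighbour CG4935 was closer, at 28 bp, so this summit cannot be assigned to either promoter alone. The twe signals were 137, 30.2 and 64.7 at ranks 2492, 9914 and 2692, and replicate 2 stood far below the others. stg, whose transcription times the later embryonic mitoses, had its best summit 10 bp downstream of its nearest start, with signal 189 (rank 3706). It was the first of the 33 genes below the list. Its signals were 60.4, 62.7 and 78.7 at ranks 7713, 2864 and 2013, so 2 of 3 replicates placed stg within their top 3567. dap, the inhibitor of CycE and Cdk2, had its best summit at rank 5075, 25 bp upstream of its start, with replicate ranks of 4572, 10852 and 3712.

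Among the 13 origin and helicase genes, Orc2 and dup were called. Orc2, a subunit of the origin recognition complex, had its summit 240 bp upstream of its start, at chr3R:13964515-13964755, with pooled signal 422 (rank 1326). The Orc2 signals were 251, 98.2 and 86.1 in replicates 1, 2 and 3, at ranks 1207, 1549 and 1763, and its percentile was 55.3 ± 6.80 (SD, n = 3), about the middle of the IDR list. dup, the Cdt1 loader of the helicase, had its summit in the region chr2R:15380486-15380925, inside the gene and 92 bp upstream of its nearest start. The pooled signal of this summit was 263 (rank 2357). The dup signals were 106, 75.8 and 64.5, at ranks 3465, 2198 and 2700, and its percentile was 27.2 ± 13.3 (SD, n = 3). All 3 replicates held both genes within their top 3567. The dup summit lay 18 bp from the start of SRPK, a neighbour, and so cannot be assigned to dup alone.

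The rest of the origin and helicase set stood far below the end of the IDR list. Of the other origin complex subunits, Orc1 had rank 8159, lat (Orc3 in the annotation) had rank 12348 and Orc4 had rank 19255, while Orc5 and Orc6 had no pooled summit. None of the 6 MCM helicase subunits was called. dpa (Mcm4) had rank 6972, Mcm2 had rank 11785, Mcm6 had rank 13183 and Mcm7 had rank 18380, while Mcm3 and Mcm5 had no pooled summit. The Mcm2 summit lay nearer to the start of RPA1, which encodes a single-strand binding protein of the fork, at 198 bp. The median best pooled rank was 11785 over the 9 origin and helicase genes with a pooled summit, 4404 over the 11 cyclin and kinase genes and 4802 over all 25, against 7449 over the 7025 protein-coding genes with one.

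In all, 8 of the 33 genes had no pooled summit. Of these, CycD, Cdk1, Mcm3 and RnrL were in no replicate list either. The other 4 appeared only at low rank. Mcm5 was at rank 14686 in replicate 1 and 25166 in replicate 2, while Orc6, Orc5 and fzy were listed in replicate 3 alone, at ranks 14737, 18662 and 29207. Each list stops at 30000 regions, so a missing gene had a region below that rank or none.

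Support across replicates was uneven. All 3 replicates held the region among their 3567 highest for 6 of the 13 called summits (46.2%), against 65.3% of the 3567 IDR-list summits, and the other 7 had 2 replicates. By gene, CycE, Orc2, dup, fzr and E2f1 were supported by all 3, 5 of 33 (15.2%), against 9.15% of all protein-coding genes. Since the IDR list derives from these same libraries, this support is a description. Taken alone, the 3567 highest regions of replicate 1 called 8 of the 33 genes (24.2%), against 13.8% of all genes, and those of replicate 2 also called 8 (24.2%), against 12.9%. Those of replicate 3 called 11 (33.3%), against 14.1%. Replicate 1 called polo but neither CycB3 nor Dp, replicate 2 called stg but neither twe nor RnrS, and replicate 3 called all 9 genes together with stg and PCNA.

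**Figure D2:**
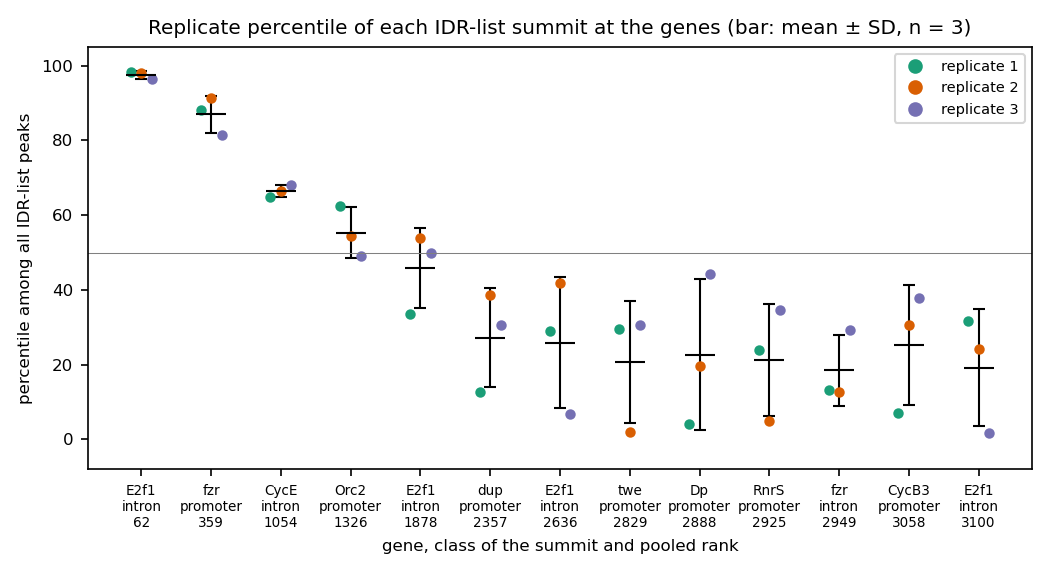
Percentile of the replicate signal among all IDR-list peaks for each of the 13 called summits in order of pooled rank, points being the 3 replicates and bars the mean ± SD (n = 3). The highest E2f1 (97.6 ± 1.07), fzr (87.0 ± 4.97), CycE (66.4 ± 1.60) and Orc2 (55.3 ± 6.80) summits have means above the middle line, and the other 9 have means below it.

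By position, the 13 called summits were either promoter sites or intronic. The 7 promoter summits (CycB3, twe, Orc2, dup, fzr, RnrS and Dp) all lay upstream of their own gene's nearest start, against 66.9% of the 1409 promoter summits of the IDR list lying upstream of the start nearest to them. Over the best promoter summit of all 25 genes, 21 lay upstream, with a median position 103 bp upstream of the start, and 5 (twe, dup, aurA, aurB and Mcm2) lay nearer to the start of another gene. Upstream is counted here from the gene's nearest start. The dup, polo, lat, CycE and dpa summits, counted as upstream, lay inside the gene. The 6 intronic summits belonged to E2f1, fzr and CycE, the 3 members longer than 10 kb. All 3 long genes were called, against 41.2% of protein-coding genes longer than 10 kb, and all 3 had a called intronic summit, against 28.2%. Of the 28 members up to 5 kb, 5 were called (17.9%), against 7.37% of genes of that size. The remaining 2 members are CycA and Dp, of which Dp was called. Called shares were thus higher among long genes over the whole annotation, and the members' median length was 2883 bp, against 2166 bp for all protein-coding genes. How far length accounts for the members' share was not tested.

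Of all 111 pooled summits at the 33 genes, 45 were promoter sites (40.5%, against 27.4% of the 30000 pooled summits), 46 were intronic (41.4%, against 40.1%) and 14 lay in coding exons (12.6%, against 5.71%). None of the 14 in coding exons was in the IDR list. The rule for members admits no intergenic summit beyond 500 bp of a start, so these shares are not on an equal footing with those of the whole list, of which 22.0% was intergenic.

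**Figure D3:**
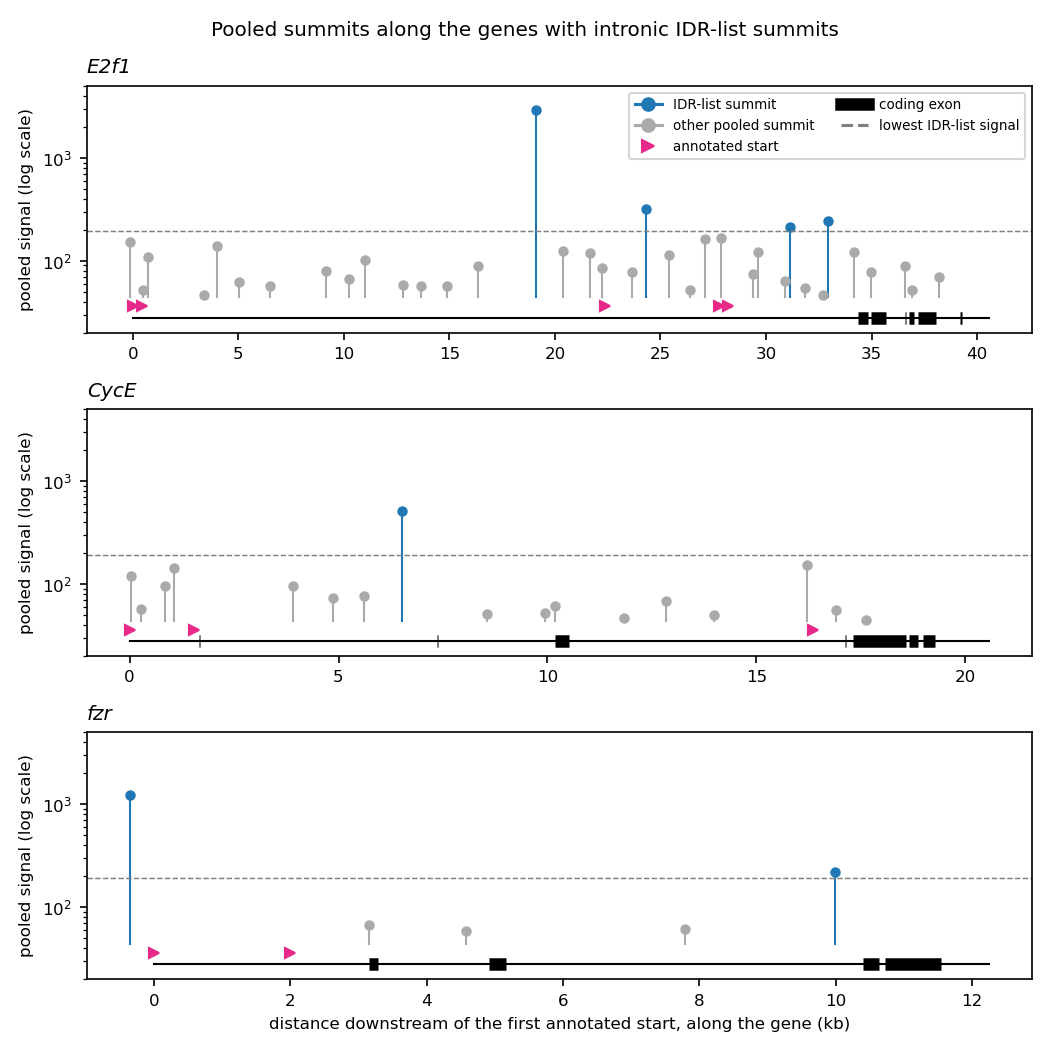
Pooled summits along E2f1, CycE and fzr, the 3 longest members, as distance in kb downstream of the first annotated start, with height giving pooled signal on a log axis, IDR-list summits in blue, others in grey, coding exons as black boxes and starts as triangles. The E2f1 summit of signal 2913 and the CycE summit of signal 517 stand inside introns, and the fzr summit of signal 1238 stands upstream of the gene.

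Elements of known regulators of replication genes were then sought in the members' promoters. An E2F site was taken as TTTGGCGC, TTTCCCGC, TTTCGCGC or TTTGCCGC. It was searched on both strands from 250 bp upstream to 50 bp downstream of each gene's canonical start, that of its Ensembl canonical transcript. Further starts of a gene were not searched, and E2f1, for example, has 5 starts in all. Matches may overlap each other, and each gene was counted once. The E2F site was present in 13 of 33 members (39.4%), against 6.51% of 13944 protein-coding genes. The DRE, the element bound by the factor DREF, was present in 6 of 33 (18.2%), against 8.94%. Among origin and helicase genes 9 of 13 had an E2F match, and among the MCM genes 4 of 6. Matches to GAGAG were present in 8 of 33 members against 30.3% of genes, M1BP in 6 of 33 against 5.87%, and CAGGTAG (Zelda, the activator of the early embryonic genome) in 0 of 33 against 1.72%. A match describes the letters in the window and not a bound site.

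Sequences of 4 uncalled members show these elements at starts outside the IDR list. Mcm3, Orc5 and RnrL had no pooled summit and CycA had rank 4404. Each is 151 bp from 100 bp upstream to 50 bp downstream of the start, on the gene's own strand, 5′ to 3′, from the same Release 6 genome. Capitals mark E2F, DRE or M1BP matches. Mcm3 is chrX:5323755-5323905 (plus strand), Orc5 is chr2L:13829737-13829887 (plus strand), RnrL is chr2L:10327893-10328043 (minus strand) and CycA is chr3L:11833528-11833678 (minus strand).
Mcm3: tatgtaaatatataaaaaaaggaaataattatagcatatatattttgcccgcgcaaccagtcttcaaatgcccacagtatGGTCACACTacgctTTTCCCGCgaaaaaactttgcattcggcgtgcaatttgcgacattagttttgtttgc
Orc5: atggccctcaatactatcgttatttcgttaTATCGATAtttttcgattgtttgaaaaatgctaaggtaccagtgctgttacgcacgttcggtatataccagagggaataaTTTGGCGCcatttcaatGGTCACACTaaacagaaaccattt
RnrL: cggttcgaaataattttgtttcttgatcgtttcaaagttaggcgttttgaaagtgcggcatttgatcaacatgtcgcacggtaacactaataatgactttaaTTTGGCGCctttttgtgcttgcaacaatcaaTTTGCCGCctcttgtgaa
CycA: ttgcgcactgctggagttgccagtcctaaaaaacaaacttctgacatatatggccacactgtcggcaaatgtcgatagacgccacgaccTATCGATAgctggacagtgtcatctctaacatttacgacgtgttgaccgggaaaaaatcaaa

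In Mcm3 the E2F match begins 6 bp and the M1BP match 20 bp upstream of the start. Orc5 has a DRE beginning 70 bp upstream, and E2F and M1BP matches beginning 10 and 27 bp downstream. RnrL has E2F matches beginning 2 and 33 bp downstream, and CycA a DRE beginning 11 bp upstream. Over the 33 genes, an E2F match in the promoter was found in 2 of the 9 called genes (CycE and RnrS) and in 11 of the 24 others. These 11 were Mcm2, Mcm3, Mcm5, Mcm6, Orc1, Orc4, Orc5, Orc6, RnrL, lat and stg. A DRE was found in 1 of the 9 called genes (Orc2) and in 5 of the 24 others (Cdk2, CycA, Orc5, PCNA and lat). GAGAG was found in 4 of the 9 called genes (CycB3, E2f1, Orc2 and fzr) and in 4 of the 24 others. M1BP was found in 1 of the 9 (CycB3) and in 5 of the 24. The called CycE summit is intronic, 4988 bp from its nearest start, so its promoter E2F matches are not at the called site. dup had no E2F match around its canonical start, the only one searched, but its called summit window held one. Of the 20 members without an E2F match, 7 were called. Over all protein-coding genes, 15.9% of the 908 with an E2F match and 15.6% of the 1247 with a DRE were called, close to the 13.6% of all genes. The called share of all genes with a GAGAG or M1BP match was not computed.

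In the 201 bp windows around the 13 called summits, M1BP was matched in 3 (CycB3, twe and the fzr promoter; 23.1%), against 1.40% of all IDR-list windows and 3.26% of its promoter windows. GAGAG was matched in 3 (23.1%), against 34.5% of IDR-list windows. A DRE was matched in 1 (Orc2), against 1.88%, an E2F site in 1 (dup), against 3.39%, and Zelda in 1 (the E2f1 summit of rank 2636), against 1.18%. The M1BP matches are the capitals GGTCACACT, or the reverse complement AGTGTGACC, in the twe, CycB3 and fzr windows printed earlier, and the count rests on 3 windows, so it was not tested. In the best summit window of each of the 25 genes, a DRE or E2F match was present for 9 (CycA, Cdk2, Orc1, Orc2, lat, Orc4, dup, dpa and PCNA), of which Orc2 and dup were in the IDR list. A DRE was in 4 of these 25 windows and an E2F site in 5, against 5.37% for each among pooled promoter windows. The E2f1 and CycE windows among the 25 are intronic, so the match to promoter windows is not exact.

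**Figure D4:**
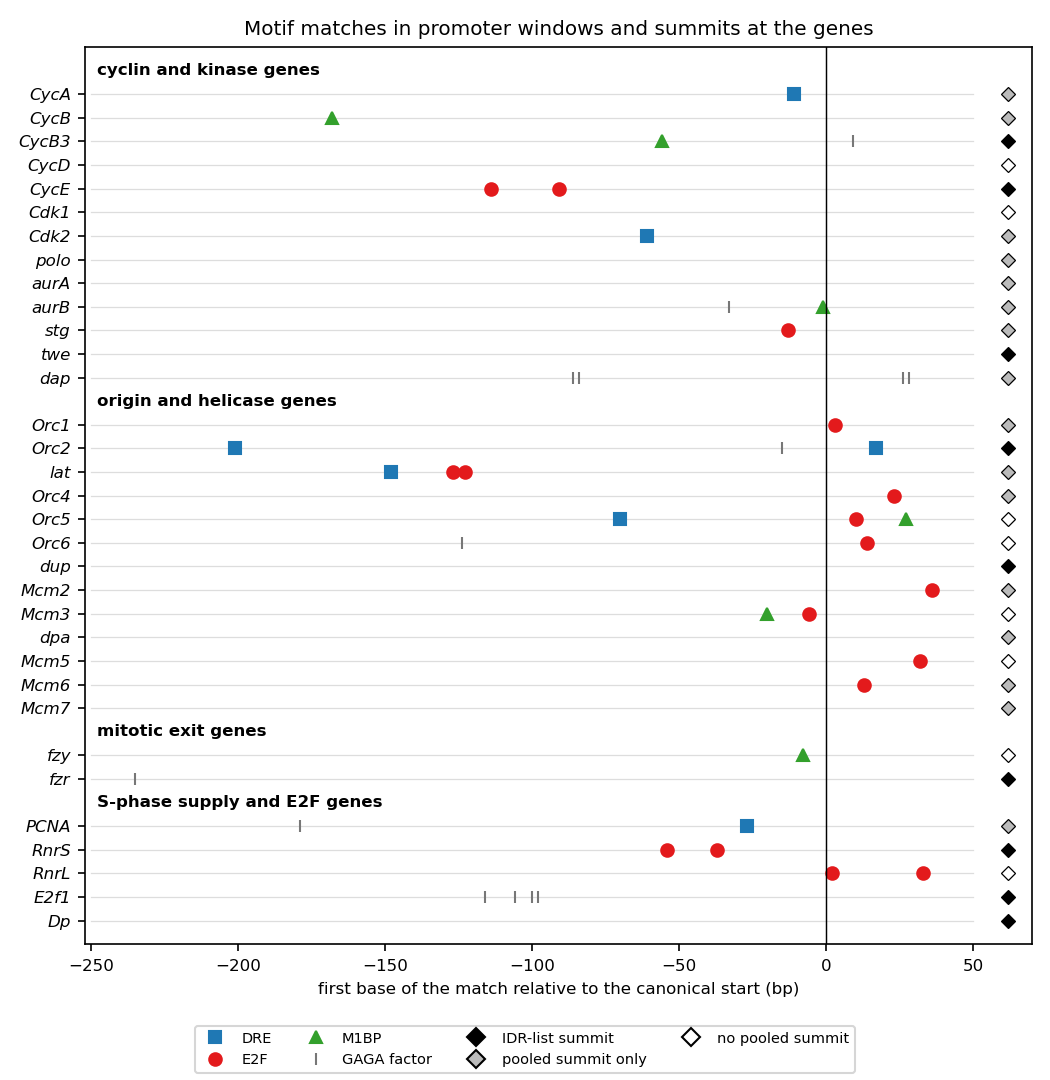
Positions of exact motif matches in the promoter window of each of the 33 genes, in bp from the canonical start (250 bp upstream to 50 bp downstream). Each gene has a row, and diamonds at the right mark an IDR-list summit (black), a pooled summit only (grey) or neither (open). E2F matches sit in 11 of the 24 rows that are not called and in 2 of the 9 that are.

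The wider pathway, a list of 85 other replication, cyclin, mitotic and cohesin genes of which 84 matched the annotation, was called at 11 genes (13.1%), against 13.6% of all protein-coding genes. The anaphase-promoting complex and exit group had 4 of 15, E2F and dREAM 2 of 8, cyclins and kinases 2 of 17, replication 2 of 27, mitotic regulators and checkpoint 1 of 13 and cohesin 0 of 4. The highest site was at Cdc16, a subunit of the anaphase-promoting complex that fzr activates, 49 bp upstream of its start with signal 2187 (rank 122). Its replicate ranks were 124, 156 and 125, so all 3 libraries placed it alike. Cdc27, another subunit, was called 17 bp upstream of its start (rank 2223), vih, a ubiquitin-conjugating enzyme that acts with the complex, 33 bp upstream (rank 3505), and lmg, a further subunit, in a 3' UTR (rank 3499) in a region that no replicate held in its top 3567.

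Among the other called pathway genes, Cdc7, the kinase that fires loaded origins, had its best summit in an intron at rank 573, and its partner chif was called in an intron at rank 2688. Cdk4, the partner of CycD, was called 137 bp downstream of its start at rank 1487, and CycG 5 bp upstream of its start at rank 3509. Replicate 1 did not list the CycG region, which had ranks 2304 and 1113 in replicates 2 and 3. Myb and mip120, subunits of the dREAM complex, which controls many cell cycle genes, were called at ranks 1442 and 1583, the mip120 summit lying nearer to the start of mEFTu1, at 361 bp. The mts summit (rank 1715) lay 2 bp from the start of Rack1. The pathway list was chosen by function, with earlier results of these data known.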

How the data were processed

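ChIP-seq region lists of 3 replicates of 1 group were used, on build dm6. The signal values are those the authors deposited, in a unit the sources used here do not give, and the −log10 q-values, also deposited, equalled 3.96 throughout the IDR list and played no part in ranking. Per the deposited notes, each replicate list came from that replicate's alignment and 1 control alignment shared by all 3, and the pooled list from all of them. For the aligner, the peak caller and the IDR threshold, the sources used here name nothing. No list holds read counts, so depth is unknown and no interval was computed.

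Summits were placed with Ensembl release 115 (BDGP6.54) on the 6 main arms. Promoter class took precedence, at up to 500 bp from any start, before exonic, intronic and intergenic classes. A summit counts for a gene when inside it or within 500 bp of a start, so neighbours can share a summit. A replicate supports a peak when 1 of its 3567 highest regions overlaps it by at least 1 bp. Percentiles use the highest overlapping signal among all IDR-list peaks, with an unlisted region placed lowest. Of the 33 members 32 matched by symbol and lat by its synonym Orc3. Motifs were matched exactly on both strands in summit windows of 201 bp and in promoters, from the RefSeq Release 6 genome. Python 3.11.15, pandas 2.3.3, numpy 2.4.6 and intervaltree 3.1.0 were used, and the placement code was tested on simulated data. Every called member is described, the others by their best pooled summit, and of the wider pathway list the called genes are named. The members and lists were chosen with earlier results of these data known, and no p-value is given. Signal tracks were not used here.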

Additional observations from a re-analysis of the deposited data

How the results depend on the processing

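The count of 9 called genes was 7 with a 200 bp window (against 12.3% of all protein-coding genes), 9 with 1000 bp (15.1%) and 7 with promoters only (9.65%). It was 6 when a summit counted only for the gene with the nearest start (11.0%) and 7 for the nearest protein-coding start (11.4%), an alternative chosen after seeing the data. With the 1783 highest IDR-list summits alone, 4 genes were called in all (against 7.71% of all genes) and 1 in each of the cyclin and kinase, origin and helicase, and S-phase supply and E2F sets. The cyclin and kinase count was 1 with the nearest start. The origin and helicase count was 1 with the 200 bp window, with the nearest start and with the nearest protein-coding start. Genes supported by all replicates numbered 8 with 2 times as many top regions and 5 with summits within 100 bp. They numbered 4 with 0.5 times as many top regions, where dup was lost. They also numbered 4 when a region had to overlap by 0.5 of the peak, where CycE was lost. Leaving out each replicate in turn gave 5 to 7. The share of all protein-coding genes was not computed under these altered support settings. No shift in these counts can therefore be read as particular to the members. All 25 mean percentiles moved when taken among all regions of each replicate list. Leaving a replicate out of a mean of 3 cannot move it by 1 SD, so that alternative says nothing of how stable the percentiles are. With flanks of 200 bp, 10 best windows held a DRE or E2F match. A DRE was in 4 of the 25 windows and an E2F site in 6, against 7.74% and 9.95% of pooled promoter windows. The unknown depth limits what can be said of absent sites. No paired analysis was possible because there was 1 group.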
